A study of Mus musculus with 18 samples.

Results

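Slc3a2 encodes CD98hc (4F2hc), the heavy chain shared by a family of amino acid exchangers at the plasma membrane. It is described here with 9 further amino acid transporter genes, namely its light chains Slc7a5, Slc7a6, Slc7a7, Slc7a8 and Slc7a11, and the separate carriers Slc1a4, Slc1a5, Slc38a1 and Slc43a2. The members were taken by symbol, and all 10 of 10 were found among the 24111 genes counted. RNA was sequenced from mpkCCD cells, named mpkCCD11 in the culture protocol, an immortalised mouse line with features of collecting duct principal cells and so 1 line rather than kidney tissue. Monolayers grown on permeable supports were kept without serum for 24 h and then for another 24 h either without addition (control) or with 0.1 nM dDAVP, an analogue of vasopressin that acts on the V2 receptor. Each group had 9 libraries, numbered 1 to 9. The labels do not say that these were separate cultures, so the p-values measure only the spread between libraries, which may be technical.

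The heavy chain does not itself form the transport pore. It is joined to a light chain by a disulfide bond, carries it to the cell surface, and the light chain determines which amino acids are exchanged. In kidney tubules such exchangers sit mainly in the basolateral membrane, and the leucine and glutamine they carry feed protein synthesis and mTORC1 signalling. Slc1a5 and Slc38a1 bring in glutamine, Slc1a4 exchanges small neutral amino acids, and Slc43a2 carries large neutral amino acids without a heavy chain.

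Slc3a2 lies on chromosome 19 at 8706882 to 8723369, minus strand (GENCODE M21 on GRCm38), and its sequence upstream of the start site is shown because it is the member with the largest RNA difference relative to its error in replicates 1 to 3. Slc7a11 lies on chromosome 3 at 49892526 to 50443614, minus strand, and is shown beside it because its upstream sequence holds matches to the amino acid response element. Both are the 250 bases before the RefSeq start site (GRCm38.p6, minus strand, printed 5′ to 3′), at chr19:8713898-8714147 and chr3:50443614-50443863. The Slc3a2 window lies inside the GENCODE span of the gene, so the RefSeq start site is not its outermost annotated start, and sequence upstream of that outer start was not examined. Capitals mark TGATGNAA on either strand.
Slc3a2: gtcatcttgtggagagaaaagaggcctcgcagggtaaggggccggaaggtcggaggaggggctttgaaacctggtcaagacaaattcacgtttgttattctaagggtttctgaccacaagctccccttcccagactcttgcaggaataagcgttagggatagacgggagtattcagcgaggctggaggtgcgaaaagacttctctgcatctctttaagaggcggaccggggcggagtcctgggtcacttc
Slc7a11: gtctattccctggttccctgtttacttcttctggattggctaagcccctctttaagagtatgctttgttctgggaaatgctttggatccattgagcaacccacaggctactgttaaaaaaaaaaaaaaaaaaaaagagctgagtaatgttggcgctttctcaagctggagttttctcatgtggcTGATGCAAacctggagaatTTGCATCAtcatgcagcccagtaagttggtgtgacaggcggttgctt

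RefSeq windows of 300 bases, 250 before and 50 after a start site, were present for 7 of the 10 members, with 13 windows in all. The missing ones are Slc7a5, Slc1a5 and Slc38a1. The full cAMP response element, TGACGTCA, had no match in the 13 windows, against 1.79% of all 32851 mouse windows (both strands searched here and below). Its shorter form TGACG, which lies within the full element, was found in 3 of the 13 windows, against 20.8% of all windows. These belong to 2 of the 7 genes, Slc7a6 and Slc1a4. TGATGNAA, the amino acid response element read by Atf4, matched in 4 of the 13 windows, against 3.97% of all windows. The 4 windows belong to 3 of the 7 genes, Slc7a7, Slc7a11 and Slc1a4. Windows of 1 gene can overlap and hold the same site, as those of Slc7a6 and Slc7a7 do, so the member windows are not independent. In Slc7a11 the matches start 66 and 47 bases before the start site. The Slc3a2 window had neither motif, nor TGACNNNGC, the antioxidant response element, which 12.4% of all windows held. These are matches of letters in short windows and say nothing of binding.

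Library totals ran from 22.2 to 105.9 M counts. The libraries stood apart in 3 sets by number (1 to 3, 4 to 6 and 7 to 9), which the labels do not describe, so treatment was compared over all libraries, with the set as a term, and within each set of 3 control and 3 dDAVP libraries. Levels below are counts per M of the TMM-scaled library total (normalised CPM), and genes are set against each other only by the deposited FPKM, which takes length into account. A gene was called at an edgeR quasi-likelihood Benjamini-Hochberg adjusted p under 0.05 over all genes tested. Of markers of other cells, fibroblast genes summed to at most 1.09 CPM and endothelial genes to at most 0.0564 CPM in any library. Leukocyte markers summed to at most 13.8 CPM (5 genes, with Cd68 the one tested), proximal tubule markers to at most 10.9 CPM (9 genes) and intercalated cell markers to at most 22.9 CPM (6 genes). Of the 8 principal cell markers, Aqp2, the vasopressin-regulated water channel, rose with dDAVP in replicates 1 to 3 and with the set as a term. No other marker of that list was called in any comparison. Those with a positive difference numbered 4 of 6 tested with the set as a term and 3 of 6 over all libraries. Within the 3 sets in turn they numbered 4 of 5, 2 of 7 and 4 of 7.

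Slc3a2 differed most clearly in replicates 1 to 3. Its normalised CPM was 346, 261 and 364 in control libraries 1, 2 and 3, and 550, 685 and 709 in dDAVP libraries 1, 2 and 3. All 3 dDAVP libraries lay above all 3 controls. The fitted difference was 0.93 on the log2 scale (SE 0.21, n = 3 and 3), or 1.91-fold, with edgeR adjusted p = 0.111, so it was not called. Slc3a2 was the only member that did not overlap between the groups in this set, and 7.47% of the 8991 genes tested were likewise higher in all 3 dDAVP libraries (6.93% were lower in all 3). On the FPKM scale the means were 91.9 ± 15.1 and 183 ± 18.3 (SD, n = 3 each), again with no overlap, as for 10.9% of genes. Of the 8991 genes 79 had a smaller p than Slc3a2, and edgeR called 41 genes (0.456%).

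The side of the threshold on which Slc3a2 fell in replicates 1 to 3 moved with the analysis. Its direction did not, but as the groups did not overlap, leaving out 1 library could hardly have changed it. DESeq2 gave 0.94 (SE 0.26) with adjusted p = 0.026, and Slc3a2 was the only member among the 123 genes (1.37%) that it called. Without a filter on low counts the adjusted p was 0.0476 (1.52% of genes called). Leaving out dDAVP 1 gave 0.99 with edgeR adjusted p = 0.0178 and a total of 774 called genes (8.31% of those tested). That fit sets only dDAVP 2 and 3, the libraries with Umod and Slc12a3 counts described next, against the controls. Leaving out any other library gave edgeR adjusted p between 0.197 and 0.507.

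Libraries dDAVP 2 and dDAVP 3 stood apart in a further way. Of 4 markers of thick limb and distal convoluted tubule, 3 were detected there: Umod at 34.2 and 27.2 CPM, Slc12a3 at 10.6 and 8.91 CPM and Slc12a1 at 0.847 and 0.846 CPM, with Pvalb at 0. The list summed to 45.7 and 37.0 CPM in these 2 libraries and to at most 1.32 CPM in any other. In dDAVP 1 it summed to 0.0458 CPM. Slc3a2 was at 550 CPM there, the lowest of the 3 dDAVP libraries of its set and above the 3 controls. With both libraries left out, a choice made after seeing the data, the Slc3a2 difference in replicates 1 to 3 was 0.84 (SE 0.26, 1 dDAVP library, whose spread is taken from the controls) with edgeR adjusted p = 0.338. Over all remaining libraries it was -0.07, and with the set as a term 0.07 (SE 0.33). Intercalated cell markers also summed higher with dDAVP in this set (4.35 to 14.4 against 1.79 to 2.43 CPM, 6 genes, with Slc26a4 and Foxi1 at 0 throughout). The 3 of them tested were all negative in replicates 4 to 6 (median -0.79) and all positive in replicates 7 to 9 (median 0.97). In replicates 1 to 3 all 3 were positive at an unadjusted edgeR p under 0.05, with a median of 2.16, and none was called. Principal cell markers summed to 1278 to 3055 against 145 to 215 CPM, a sum that includes Aqp2, itself regulated by vasopressin. Of the 5 principal cell markers tested in this set 4 were positive and 1 negative, with a median of 0.87, and only Aqp2 was called. Proximal tubule markers summed to 2.88 to 5.38 CPM with dDAVP against 6.48 to 8.33 CPM, and Lrp2, the one of them tested, differed by -0.96 at an unadjusted p under 0.05 without being called. Leukocyte markers summed to 2.79 to 5.47 against 1.74 to 4.16 CPM. The part of these transcripts in the Slc3a2 difference was not tested.

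In the other sets the groups of Slc3a2, and of every other member in normalised CPM, overlapped. All dDAVP libraries lay above all controls for 5.38% of genes in replicates 4 to 6 and below them for 4.38%, and for 4.56% and 4.43% in replicates 7 to 9. Slc3a2 was at 80.8, 79.7 and 109 CPM in control libraries 4 to 6 and at 113, 115 and 60.6 CPM in dDAVP libraries 4 to 6. Here dDAVP 4 and 5 were the highest and dDAVP 6, the library with the fewest detected genes (10282), the lowest. The difference was 0.03 (SE 0.46, edgeR adjusted p = 0.999). The levels in replicates 7 to 9 were 342, 729 and 904 CPM for control and 819, 317 and 406 CPM for dDAVP. Control 7 was low and dDAVP 7 high within their groups, and the difference was -0.40 (SE 0.84, edgeR adjusted p = 0.976). That sign rests on the scaling: by library totals alone the difference was 0.18, and the median of all genes in this set moved from -0.03 to 0.54. On FPKM the means were 348 ± 48.1 and 394 ± 21.4 (SD, n = 3 each).

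**Figure D1:**
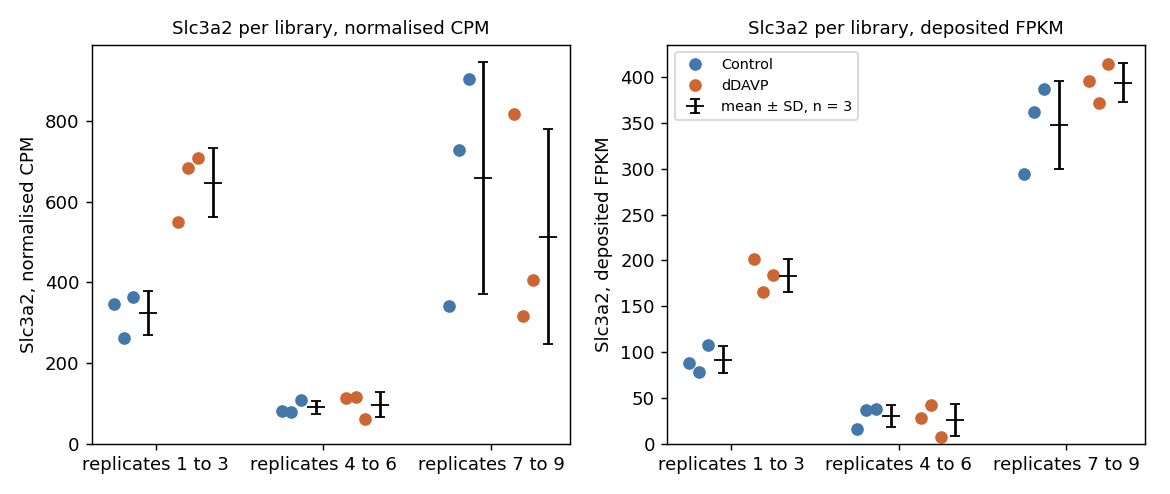
Slc3a2 in each library as normalised CPM (left) and deposited FPKM (right), by set of replicates, with control in blue and dDAVP in orange. Bars give the mean ± SD of 3 libraries. In replicates 1 to 3 the dDAVP libraries (550 to 709 CPM) lie above the controls (261 to 364 CPM), and in the other sets the groups overlap in CPM.

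Over all 18 libraries Slc3a2 differed by 0.23 (SE 0.62, n = 9 and 9, edgeR adjusted p = 1), and with the set as a term by 0.25 (SE 0.30, adjusted p = 0.946). The interaction of set and treatment gave edgeR adjusted p = 0.921, so a difference in response between sets was not shown. Without dDAVP 7 it was 0.285. No member was called in any of these fits.

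Slc3a2 also differed between sets. Across both groups the median Slc3a2 level in replicates 4 to 6 was 0.208 times that in replicates 1 to 3, with no overlap. Of all genes tested 36.2% did not overlap between these sets, in either direction. The median in replicates 7 to 9 was 5.98 times that in replicates 4 to 6, again without overlap, as for 7.90% of genes. What distinguishes the sets was not given in the sources used here.

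By FPKM Slc3a2 had the highest mean of the 10 members in every set and group. It stood between the 92.4 and 95.8 percentile of detected genes in replicates 1 to 3, 86.4 and 91.5 in replicates 4 to 6, and 96.9 and 97.9 in replicates 7 to 9. Slc1a5 came next in replicates 1 to 3 and 7 to 9, far below Slc3a2 and without overlap: 6.40 ± 1.61 FPKM against 91.9 in control libraries 1 to 3. Slc7a5 came next in replicates 4 to 6, at 21.8 ± 6.95 FPKM in control against 30.0 ± 11.8 for Slc3a2 (SD, n = 3 each), and these ranges overlapped. Neighbouring genes lower in the order mostly overlapped. In control libraries 7 to 9, for example, the 6 genes from Slc7a5 to Slc43a2 each overlapped the next. Slc7a11 or, in 1 to 3, Slc43a2 and Slc7a7 lay near the bottom, and Slc7a8 was last throughout.

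**Figure D2:**
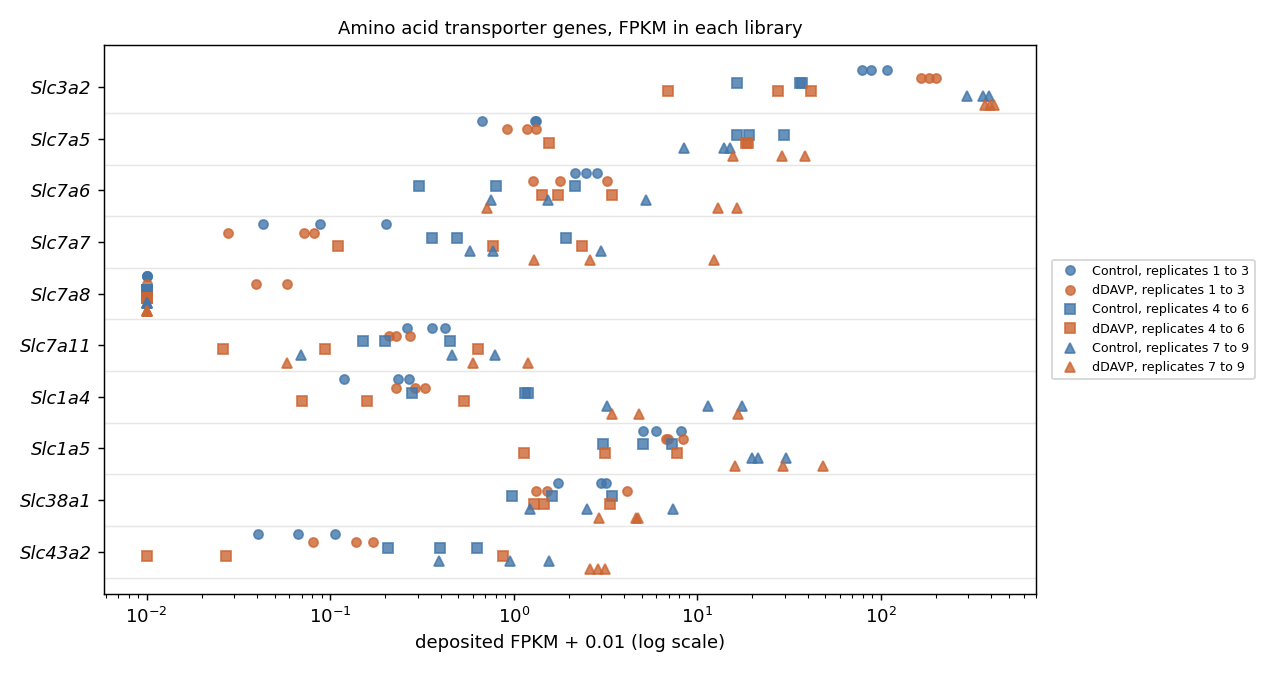
Deposited FPKM plus 0.01 (log axis) of each of the 10 genes in each of the 18 libraries, with control in blue, dDAVP in orange and a marker shape for each set of replicates. Slc3a2 lies furthest right except where Slc7a5 reaches it in replicates 4 to 6, and Slc7a8 sits at 0 in all but 2 libraries.

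Slc7a5, the light chain LAT1, which exchanges leucine and other large neutral amino acids for glutamine, lies on chromosome 8 at 121881150 to 121907694. The annotation puts Gm20388 across it on the opposite strand, and since the strand setting of the counting was not stated, its counts may include reads of that gene. Its CPM was 3.36, 5.64 and 5.77 in control libraries 1 to 3 and 4.67, 4.96 and 5.92 with dDAVP. Replicates 4 to 6 had 106, 55.3 and 113 in control and 99.4, 68.1 and 17.8 with dDAVP, where dDAVP 6 was the low library. Replicates 7 to 9 had 21.2, 39.4 and 25.9 against 42.0, 32.1 and 49.1. The groups overlapped in each set, and the differences were 0.00 (SE 0.31), -0.62 (SE 0.58) and 0.47 (SE 0.65) in turn, with edgeR adjusted p of at least 0.967. It was 0.01 (SE 0.31) with the set as a term and -0.21 (SE 0.72) over all libraries. It also differed between sets: the median in replicates 4 to 6 was 15.8 times that in replicates 1 to 3 without overlap, in the opposite direction to Slc3a2. The median in replicates 7 to 9 was 6.75 times that in 1 to 3, and 23.7% of genes likewise lay above replicates 1 to 3 without overlap.

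Slc7a6, the light chain y+LAT2, which exchanges arginine for glutamine, lies on chromosome 8 at 106168857 to 106198706. It had the largest difference relative to its error over all sets, 0.86 with the set as a term (SE 0.48, edgeR adjusted p = 0.856), and was not called. Its CPM was 15.3, 9.91 and 11.5 in control against 12.1, 10.2 and 6.82 with dDAVP in replicates 1 to 3. It was 5.37, 0.895 and 8.73 against 8.09, 13.1 and 21.2 in replicates 4 to 6, and in replicates 7 to 9 it was 8.47, 4.28 and 2.41 against 2.02, 19.4 and 17.6. In the later sets 2 of 3 dDAVP libraries lay above all controls in normalised CPM. By FPKM, replicates 4 to 6 had 0.787, 0.293 and 2.16 in control against 1.42, 3.44 and 1.74 with dDAVP, where only dDAVP 5 lay above all controls. The share of genes with such a pattern was not computed. The differences were -0.37 (SE 0.33), 1.52 (SE 0.81) and 1.33 (SE 0.92), and 0.73 (SE 0.51) over all libraries, and the interaction had edgeR adjusted p = 0.952.

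Slc7a7, the related light chain y+LAT1, lies on chromosome 14 at 54369442 to 54417780 and overlaps Oxa1l on the opposite strand, so its low counts are uncertain. It had 1 to 10 counts per library in replicates 1 to 3 and was not tested there. In the other sets it ran from 0.719 to 8.51 CPM, with differences of 0.34 (SE 1.12) and 1.40 (SE 1.04). The difference was 0.40 (SE 0.61) with the set as a term and 0.89 (SE 0.82) over all libraries. The highest library was dDAVP 8, at 8.51 CPM. Without it the difference was 0.56 in replicates 7 to 9, 0.0014 with the set as a term and 0.30 over all libraries. Slc7a8, the light chain LAT2, on chromosome 14 at 54722209 to 54781946, had 0 counts in 16 libraries, and 5 counts in dDAVP 2 and 3 counts in dDAVP 3. Those are the same libraries that held Umod and Slc12a3. A count of 0 allows up to 3 counts in a library, for counting error only, and Slc7a8 did not pass the count filter in any comparison.

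Slc7a11, the light chain xCT, exchanges cystine for glutamate and supplies cysteine for glutathione. The annotation places pseudogenes and an antisense gene across it. Its CPM was 5.50, 3.95 and 2.88 in control libraries 1 to 3 and 1.88, 3.75 and 2.88 with dDAVP, a difference of -0.63 (SE 0.36, edgeR adjusted p = 0.543). The groups overlapped, with dDAVP 1 the lowest. It ranged in replicates 4 to 6 and 7 to 9 from 0.341 to 5.96 CPM, and the differences were -0.16 (SE 1.14) and -0.34 (SE 1.19). Over all libraries it was -0.32 (SE 0.57).

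Summed FPKM of the 5 light chains was a small share of Slc3a2 FPKM in 2 of the 3 sets. It came to 3.76, 4.62 and 4.94% of Slc3a2 in control libraries 1 to 3, from lowest to highest, and to 1.51, 1.83 and 2.37% with dDAVP. For replicates 4 to 6 it was 59.8, 87.1 and 109% in control and 49.5, 60.7 and 75.6% with dDAVP, and in replicates 7 to 9 it was 2.70, 4.74 and 7.83% against 4.78, 13.0 and 15.7%. The groups did not overlap in replicates 1 to 3 and overlapped in the other sets. Slc3a2 is the divisor of these shares, and 70.4% of all genes tested were lower relative to Slc3a2 in all 3 dDAVP libraries of that set. Slc7a5 made up 88.9 to 92.1% of light chain FPKM in control libraries 4 to 6 and 16.1 to 33.5% in control libraries 1 to 3. RNA levels are not the amounts of assembled transporter, and in bulk RNA fewer cells with a transcript and less of it per cell cannot be told apart.

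**Figure D3:**
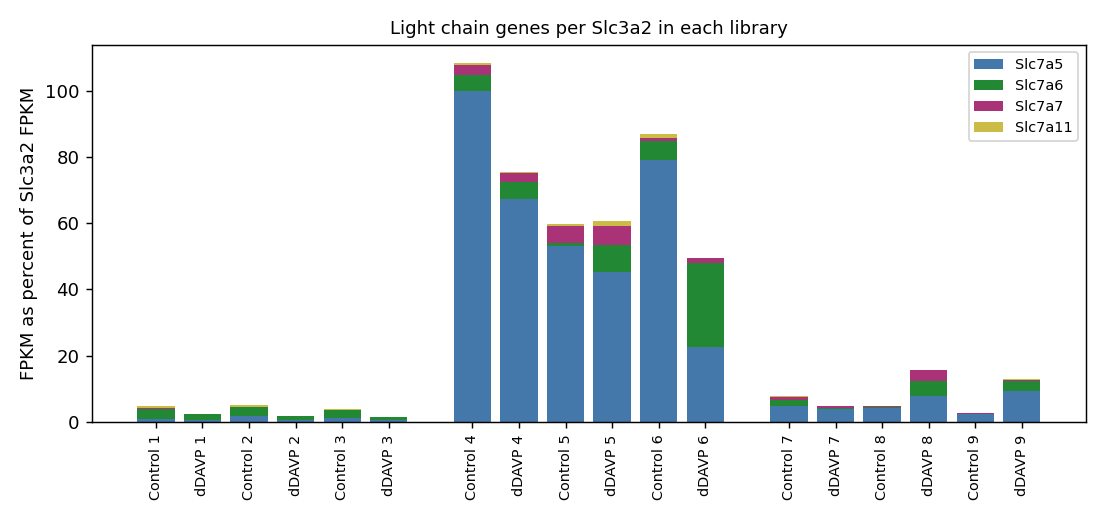
Light chain FPKM as a percentage of Slc3a2 FPKM in each library, by set of replicates. In replicates 4 to 6 the summed light chains reach 49.5 to 109% of Slc3a2, and in the other sets they stay between 1.51 and 15.7%.

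Of the carriers that need no heavy chain, Slc1a5 (ASCT2, a glutamine exchanger, on chromosome 7 at 16781340 to 16798274) overlapped between all sets in normalised CPM. In FPKM, which follows library totals without TMM scaling, replicates 7 to 9 lay above the other sets. The share of all genes that did so in FPKM was not computed. Its CPM was 20.3, 20.2 and 28.1 in control and 18.9, 29.5 and 32.9 with dDAVP in replicates 1 to 3. Libraries 4 to 6 had 36.8, 11.4 and 9.12 against 13.2, 21.8 and 10.2, and libraries 7 to 9 had 36.1, 44.2 and 47.9 against 62.4, 14.0 and 48.4. Groups overlapped in each set, and the difference with the set as a term was -0.04 (SE 0.33, edgeR adjusted p = 0.991). Within the sets it was 0.16 (SE 0.26), -0.37 (SE 0.62) and -0.10 (SE 0.71) in turn, and over all libraries -0.02 (SE 0.44).

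Slc1a4 (ASCT1, chromosome 11, 20302180 to 20332713) was low outside replicates 7 to 9. It lay between 0.527 and 1.80 CPM in replicates 1 to 3, and between 0.243 and 4.86 CPM in replicates 4 to 6. Replicates 7 to 9 were higher, with control libraries at 19.4, 9.48 and 59.7 and dDAVP libraries at 10.3, 5.95 and 23.7. Control 9 was the highest library, and the groups overlapped. That set lay above both others without overlap, its median 11.7 times that of replicates 1 to 3 and 5.84 times that of replicates 4 to 6. Of all genes tested 23.7% lay likewise above replicates 1 to 3, and 7.90% above replicates 4 to 6. The treatment difference was -1.26 (SE 0.84, edgeR adjusted p = 0.938) in replicates 7 to 9. Over all 18 libraries it was -1.04 (SE 0.89), and without control 9 it was 0.02. The earlier sets gave 0.42 (SE 0.43) and -1.07 (SE 1.13), and the set as a term -0.59 (SE 0.49).

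Slc38a1 (SNAT1, sodium-coupled glutamine uptake, chromosome 15, 96571418 to 96642913) lay between 6.69 and 47.1 CPM. Libraries 1 to 3 had 18.6, 28.8 and 27.2 CPM in control and 30.7, 15.1 and 16.0 with dDAVP, so that dDAVP 1 was the highest library and dDAVP 2 and 3 the lowest. Its difference with the set as a term was -0.02 (SE 0.39, edgeR adjusted p = 0.997), and over all libraries -0.01 (SE 0.43). Within the sets it was -0.30 (SE 0.35), 0.62 (SE 0.55) and -0.51 (SE 0.89) in turn. Slc43a2 (LAT4, chromosome 11, 75531694 to 75577575) has an antisense gene, Gm45606, and Mir3971 within it. It was at 0.978, 0.264 and 0.496 CPM in control libraries 1 to 3 and at 0.503, 1.75 and 1.30 CPM in their dDAVP counterparts, a difference of 0.94 (SE 0.54, edgeR adjusted p = 0.55). The highest values there were in dDAVP 2 and 3, and with those left out the difference was -0.10. It ran in replicates 4 to 6 from 0 counts in dDAVP 6 to 6.15 CPM in dDAVP 5. Its FPKM in replicates 7 to 9 was 0.943, 1.54 and 0.384 in control and 3.13, 2.61 and 2.86 with dDAVP. These did not overlap, nor did the FPKM of Slc7a5, and 7.93% of genes were likewise higher in FPKM. In normalised CPM both overlapped. The Slc43a2 difference was -0.72 (SE 1.46) in replicates 4 to 6, 1.16 (SE 0.84) in replicates 7 to 9, 0.53 (SE 0.66) with the set as a term and 0.67 (SE 0.84) over all libraries.

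Over the members as a whole, 9 were tested in all 18 libraries and 0 were called, as were 0% of the 10121 genes tested (218 had an unadjusted p under 0.05, none of them a member, and DESeq2 called 12 genes, no member). With the set as a term 0.0790% of genes were called, again no member. Within replicates 4 to 6 and 7 to 9 edgeR called 0% of 10387 and 0% of 11367 genes, with 479 and 590 at an unadjusted p under 0.05, and DESeq2 called 29 and 93 with no member among them. With the set as a term 5 members were positive and 4 negative, with a median of 0.01 against 0.02 for all genes. In replicates 1 to 3, 5 of 8 were positive, with a median of 0.08 against -0.01.

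**Figure D4:**
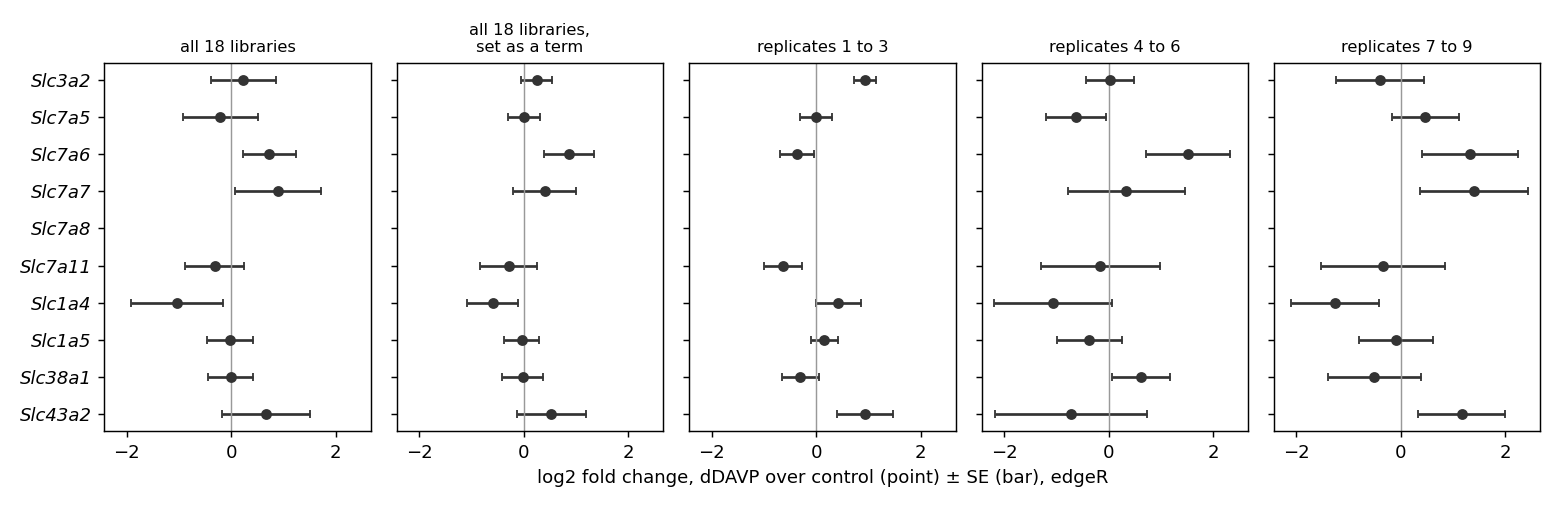
Log2 differences, dDAVP minus control, of the members tested in each comparison, with bars of 1 SE. Slc3a2 in replicates 1 to 3 (0.93, SE 0.21) lies furthest from 0 relative to its error, and errors are wider in replicates 4 to 6 and 7 to 9.

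Among other amino acid transporters, 12 of 43 further genes passed the filter over all libraries, and 0 were called in any comparison (1 of 11 tested had an unadjusted p under 0.05 in replicates 1 to 3 and 1 of 13 in replicates 4 to 6, against 10.5% and 4.61% of all genes). None of the 6 remaining heterodimer genes was tested. Slc3a1, the heavy chain of the cystine transporter, reached at most 0.155 CPM, and its partner Slc7a9 had 0 counts. None of the 5 other Slc1 genes passed either. Of the cationic carriers Slc7a4 differed by 0.65 (SE 0.34) and Slc7a1 by 0.05 (SE 0.32) with the set as a term. Of the 5 further Slc38 genes tested, Slc38a9, a lysosomal arginine sensor, differed by 0.61 (SE 0.37), Slc38a2 by 0.59 (SE 0.46) and Slc38a6 by 0.45 (SE 0.38). Slc6a6, the taurine transporter, differed by 0.48 (SE 0.30), Slc6a17 and Slc6a9 each by 0.07, Slc16a10 by 0.17 (SE 0.56) and Slc36a1 by 0.09 (SE 0.56). The edgeR adjusted p of these 10 genes ran from 0.84 to 0.991. With the set as a term 11 of the 12 tested were positive and 1 negative, against 52.2% positive of all genes. Within the sets in turn 7 of 11, 7 of 13 and 10 of 13 were positive, against 49.4, 48.1 and 48.9%.

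Genes that respond to or use amino acids were likewise not called, 0 of 79 tested over all libraries, and 13 of 73 had an unadjusted p under 0.05 in replicates 1 to 3, against 10.5% of all genes tested. With the set as a term 52.2% of all genes were positive, with a median of 0.02. Of 23 Atf4 and amino acid response genes 21 were tested in that fit, and 10 were positive, with a median of -0.03. Psat1, of serine synthesis, differed by 0.76 (SE 0.31, edgeR adjusted p = 0.815), Aldh18a1 by 0.53 and Psph by 0.56. Of 30 mTORC1 amino acid sensing genes 25 were tested and 18 were positive, with a median of 0.30 against 0.02 for all genes; Mtor differed by 0.70 (SE 0.31), Rptor by 0.60 and Rragc by 0.56. All 20 cytosolic aminoacyl-tRNA synthetases, which charge tRNAs, were tested, and 14 were positive with a median of 0.11. Among them Qars differed by 0.71, Hars by 0.65 and Yars by 0.83 (SE 0.39). Within the 3 sets in turn 13, 7 and 15 of the 20 synthetases were positive. For the mTORC1 genes it was 13 of 23, 15 of 26 and 16 of 27, against 49.4, 48.1 and 48.9% of all genes.

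Slc7a11 supplies cysteine for glutathione synthesis, which is only a part of the next list. Of 14 glutathione synthesis and Nfe2l2 target genes, 13 were tested with the set as a term. Of these 9 were positive, against 52.2% of all genes, with a median of 0.37 against 0.02. Srxn1, which repairs oxidised peroxiredoxin, differed by 0.91 (SE 0.30, edgeR adjusted p = 0.782), and in replicates 1 to 3 by 1.22 (SE 0.28, adjusted p = 0.109). Nqo1 differed by 0.70 (SE 0.44) and Nfe2l2 itself by 0.65 (SE 0.40). In replicates 1 to 3, Nfe2l2 was at -0.52 (SE 0.27). Slc7a11, at -0.29 (SE 0.54), had the sign opposite to Srxn1 in both fits. Within the 3 sets in turn 10 of 13, 6 of 13 and 9 of 14 genes of the glutathione list were positive.

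Genes most like Slc3a2 were sought by the root mean square difference, over 18 libraries, of log2 deviations from their own set means, among 6897 genes. The 5 nearest were Atg9b (0.280), Nudc (0.290), Tspan4 (0.291), Gak (0.295) and Gtf2i (0.295), against a median gene at 0.784. Slc3a2 itself deviated from its set means by 0.510. The nearest member was Slc1a5, at place 1040, followed by Slc7a5 at place 1706. The 18 libraries share their scaling, so this order is a description only.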

How the data were processed

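RNA sequencing of 9 control and 9 dDAVP libraries was used, grouped by the labels. Libraries started from 20 ng of total RNA and gave 50 bp single reads, per the labels' protocols. Those protocols describe a low-input kit and a single-cell protocol, without saying which library had which. STAR 2.4.0.1, SAMtools and HTSeq with build mm10 were used, per the submitters' processing notes. The annotation and strand setting are not given in the sources used here. The authors deposited raw counts per gene symbol and FPKM per gene. Counts divided by the deposited FPKM, scaled by library totals, varied by a median of 0.0193%. Spreadsheet software had turned 27 symbols into dates, none of them a member.

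Counts were tested with edgeR 4.0.16 (quasi-likelihood, TMM, filterByExpr, two-sided, Benjamini-Hochberg over all genes tested), in R 4.3.3. SE values are the log2 difference divided by the square root of the F statistic. Alternatives were RLE factors, library totals, no filter, a filter at 1 CPM, DESeq2 1.42.0, limma 3.58.1 on log2(FPKM + 0.1), a replicate block and leaving out each library. Leaving out dDAVP 2 and 3 was added after seeing the data. A floor of 3 counts covers counting error alone, because no molecular identifiers are described and reads need not be separate molecules. Any pair of libraries within a group and set differed by a chi-square of at least 71.6 times its degrees of freedom, so none was counted as a duplicate.

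The members, the sets, the gene lists and the tests were chosen with earlier results of these data known. The rule named all members, and of each list the called genes, or else up to 3 with the smallest p with the set as a term. Likeness was read over genes averaging 5 CPM or more. Same-numbered control and dDAVP libraries had correlated deviations from the group means (r from 0.40 to 0.93 over genes), but from -0.71 to 0.43 once set means were removed, so the numbers share a set and the block is an alternative. On simulated data 8.9% of 2-fold and 74.5% of 4-fold changes were called in replicates 1 to 3 (8961 genes), and 0.0% and 2.0% in replicates 7 to 9 (10082 genes). The shares were 0.0% and 0.0% in replicates 4 to 6 (9807 genes), 0.0% and 0.0% over all libraries and 3.0% and 57.0% with the set as a term (9898 genes each). Counts were simulated from the mean of each set and the library totals, with a spread estimated without TMM scaling. Differences in scaling between libraries can add to that spread, so these shares need not hold for the fits to the real counts. Promoter windows came from RefSeq (GRCm38.p6). Paralogs among the light chains, and Slc1a4 with Slc1a5, can share reads.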

Additional observations from a re-analysis of the deposited data

How the results depend on the processing

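Of the results under other settings than leaving out 1 library, 297 kept their side of the threshold and, where present, their direction. Among these, 36 were interaction p-values, which have no direction. A further 35 changed sign and 2 were newly called, both Slc3a2 in replicates 1 to 3. The cause of the sign changes was not tested. With scaling by library totals, the all-library differences were 0.24 for Slc7a5, 0.08 for Slc7a11, 0.26 for Slc1a5 and 0.02 for Slc38a1. With the set as a term Slc1a5 was at 0.08 and 5 genes were called. Slc3a2 was at -0.24 in replicates 4 to 6, and 1 gene was called. In replicates 7 to 9 Slc3a2 was at 0.18, Slc7a11 at 0.50, Slc1a5 at 0.39 and Slc38a1 at 0.15, with 7 genes called. This scaling moved the median of all genes from 0.05 to 0.24 over all libraries.

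With the set as a term, Slc7a5 was at -0.04 with RLE factors, -0.03 without a filter, -0.03 with the strict filter and -0.04 with DESeq2. The strict filter put Slc38a1 at 0.002 there and at 0.02 over all libraries, and limma on FPKM put it at 0.08 with 2 genes called. Slc7a5 in replicates 1 to 3 was at -0.01 without a filter, -0.0015 with the strict filter and -0.00054 with DESeq2. Genes called without a filter numbered 207, 1 and 30 in the 3 sets in turn and 35 for the interaction. DESeq2 called 12 over all libraries, 31 with the set as a term, and 123, 29 and 93 in the sets.

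With the replicate number as a block, Slc38a1 was at 0.13 and Slc7a5 at -0.0019 over all libraries, with 1 gene called, and Slc38a1 at 0.07 in replicates 7 to 9, with 3 genes called. The block called in replicates 1 to 3 101 genes. Slc3a2 had 0.94 with adjusted p = 0.0914 (edgeR), and the block changed no member's call.

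With dDAVP 2 and 3 left out, chosen after seeing the data, the all-library differences were -0.07 for Slc3a2, 0.11 for Slc7a5 and 0.07 for Slc38a1. With the set as a term they were 0.07 for Slc3a2, -0.03 for Slc7a5 and 0.15 for Slc38a1, with 4 genes called. For replicates 1 to 3 they were -0.01 for Slc7a5, 0.06 for Slc7a6, -0.16 for Slc1a4, -0.20 for Slc1a5, 0.37 for Slc38a1 and -0.10 for Slc43a2.

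Leaving out 1 library at a time, the number called ran from 0 to 1 over all libraries, from 4 to 9 with the set as a term, from 13 (without control 2) to 774 (without dDAVP 1) in replicates 1 to 3, from 0 to 2 in replicates 4 to 6, from 0 to 98 (without dDAVP 7) in replicates 7 to 9 and from 0 to 45 (without dDAVP 7) for the interaction. Over all libraries Slc7a5 ran from -0.57 to 0.14, Slc1a4 from -1.86 to 0.02, Slc1a5 from -0.29 to 0.09 and Slc38a1 from -0.18 to 0.21. With the set as a term Slc7a5 ran from -0.13 to 0.18, Slc1a5 from -0.21 to 0.23 and Slc38a1 from -0.20 to 0.44. Slc7a5 ran from -0.21 to 0.18 in replicates 1 to 3. For replicates 4 to 6 Slc3a2 ran from -0.10 to 0.24, Slc7a7 from -0.44 to 1.05, Slc7a11 from -1.74 to 0.35 and Slc1a5 from -0.71 to 0.43. In replicates 7 to 9 Slc7a11 ran from -1.19 to 0.16, Slc1a5 from -0.53 to 0.30 and Slc38a1 from -1.19 to 1.03. These are the members whose sign changed. Of the others, Slc3a2 ran from 0.03 to 0.53 over all libraries, from 0.12 to 0.35 with the set as a term and from -0.91 to -0.06 in replicates 7 to 9, Slc7a7 from 0.30 to 1.19 over all libraries, and Slc43a2 from -4.96 (without dDAVP 5) to -0.17 in replicates 4 to 6. Slc7a7 in replicates 1 to 3 and Slc7a8 did not pass the count filter.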
